A study of Mus musculus with 12 samples.

Results

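The genes described here encode the machinery that copies DNA and the enzymes that supply its building blocks. The list named 43 genes by symbol, chosen for their roles with earlier results of these data known. Of these, 41 had a probe set assigned to a single gene on the array. Gins2 and Chaf1a had none and were not analysed here. The 41 genes stood among 12393 measured genes, and a gene with several probe sets was read from the probe set of highest mean log2 intensity over all arrays. By role they comprised 9 genes of the MCM helicase and its partners, 6 of origin recognition and licensing, 8 of DNA polymerases and primase, 6 of the sliding clamp and its loader, 4 of flap removal, ligation and single-strand binding, 5 of nucleotide supply and 3 of chromatin copying.

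Before a cell divides, the origin recognition complex marks start sites on DNA, and Cdc6 and Cdt1 load the ring-shaped MCM helicase there. In S phase the helicase unwinds the DNA, primase and the polymerases copy both strands, the clamp Pcna holds the polymerases on the template, and flap removal and ligation join the fragments of the lagging strand. Ribonucleotide reductase, thymidylate synthase and related enzymes supply the deoxynucleotides, and Dnmt1, Uhrf1 and the chromatin assembly factor rebuild methylation and nucleosomes on the copies. In liver, immature cells of the fetal organ cycle actively, whereas most adult hepatocytes are quiescent and re-enter the cycle after injury.

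The samples were BMEL (bipotential mouse embryonic liver) cells, measured on 12 Affymetrix mouse 430A arrays. They are lines of CBA/J x C57Bl/6J strain background established from dpc14 liver, able to form hepatocyte-like and bile duct-like cells. The lines 9A1 and 14B3 were isolated independently and were each grown in basal culture, as aggregates for 5 days, or in Matrigel, a basement membrane gel, for 10 days. Matrigel 14B3 replicate 1 was labelled 5 days, and no day was given for basal culture. Line and culture made 6 groups of 2 arrays, so each culture had 4 arrays, and the labels name no transgene and no drug. With that 1 exception, Matrigel and aggregates also differ in days, so an effect of culture and an effect of time are largely confounded between them, and no time was given to set basal culture against either.

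Promoter windows are shown here because the members moved together across cultures. The printed ones belong to the gene with the largest aggregate change in each of 4 roles and to Pcna, which was not called in any culture comparison. Each runs from 250 bases before to 50 after the annotated start of RefSeq's table for build GRCm38.p6, read 5′ to 3′ on the strand of the gene. Capitals mark the core of the E2F binding motif, searched on both strands as TTCCCGC or TTGGCGC or TTCGCGC or TTGCCGC. The windows lie at chr8:75109259-75109558 (plus strand, Mcm5), chr11:98907901-98908200 (plus strand, Cdc6), chr12:24708004-24708303 (plus strand, Rrm2), chr17:56303087-56303386 (plus strand, Uhrf1, 1 of its 2 windows) and chr2:132253131-132253430 (minus strand, Pcna).
Mcm5: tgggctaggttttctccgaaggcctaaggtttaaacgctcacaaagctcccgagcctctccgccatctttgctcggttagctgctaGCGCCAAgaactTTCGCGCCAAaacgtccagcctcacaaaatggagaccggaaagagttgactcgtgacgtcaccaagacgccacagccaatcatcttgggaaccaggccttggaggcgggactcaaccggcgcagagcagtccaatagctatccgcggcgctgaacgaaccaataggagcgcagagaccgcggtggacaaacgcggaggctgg
Cdc6: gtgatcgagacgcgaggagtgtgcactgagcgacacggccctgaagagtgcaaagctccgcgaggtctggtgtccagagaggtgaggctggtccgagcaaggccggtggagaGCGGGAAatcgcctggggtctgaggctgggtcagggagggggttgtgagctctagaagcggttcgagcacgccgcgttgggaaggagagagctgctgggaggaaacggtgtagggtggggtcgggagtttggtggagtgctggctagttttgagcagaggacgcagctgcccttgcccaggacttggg
Rrm2: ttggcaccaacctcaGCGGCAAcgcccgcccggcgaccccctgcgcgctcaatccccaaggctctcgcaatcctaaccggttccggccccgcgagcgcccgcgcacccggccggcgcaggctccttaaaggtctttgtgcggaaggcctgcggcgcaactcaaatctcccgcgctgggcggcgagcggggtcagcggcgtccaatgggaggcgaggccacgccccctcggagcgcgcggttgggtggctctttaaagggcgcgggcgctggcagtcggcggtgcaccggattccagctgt
Uhrf1: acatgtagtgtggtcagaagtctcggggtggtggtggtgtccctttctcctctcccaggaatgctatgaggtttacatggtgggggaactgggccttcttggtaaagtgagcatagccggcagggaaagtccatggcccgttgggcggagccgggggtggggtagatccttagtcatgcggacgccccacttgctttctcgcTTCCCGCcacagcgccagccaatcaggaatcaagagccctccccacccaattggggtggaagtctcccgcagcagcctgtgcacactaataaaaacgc
Pcna: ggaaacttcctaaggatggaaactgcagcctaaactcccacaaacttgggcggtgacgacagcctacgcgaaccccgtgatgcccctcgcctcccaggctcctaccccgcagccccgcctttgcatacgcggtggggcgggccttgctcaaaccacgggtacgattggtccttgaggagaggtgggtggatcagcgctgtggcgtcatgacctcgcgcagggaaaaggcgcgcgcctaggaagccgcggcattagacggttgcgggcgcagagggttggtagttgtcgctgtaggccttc

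The Mcm5 window held 3 E2F cores, of which a pair overlapped, and those of Cdc6, Rrm2 and Uhrf1 held 1 each. The Pcna window held no core of these letters. A window was listed for 35 of the 41 genes; Prim2, Pole, Gmnn, Rfc2, Gins1 and Mcm4 had none. At least 1 core was found in 22 of the 35 genes (62.9%), in 17.2% of the 9887 measured genes with a window and in 10.9% of the 27025 genes of the table. The CCAAT box, the letters bound by NF-Y, was found in 22 of the 35 genes (62.9%), in 42.3% of the measured genes with a window and in 41.1% of all. All 7 helicase genes with a window held CCAAT. The median GC content was 57.5% in the members' windows and 59.0% in those of the measured genes. These matches describe letters and were not tested for binding.

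**Figure D1:**
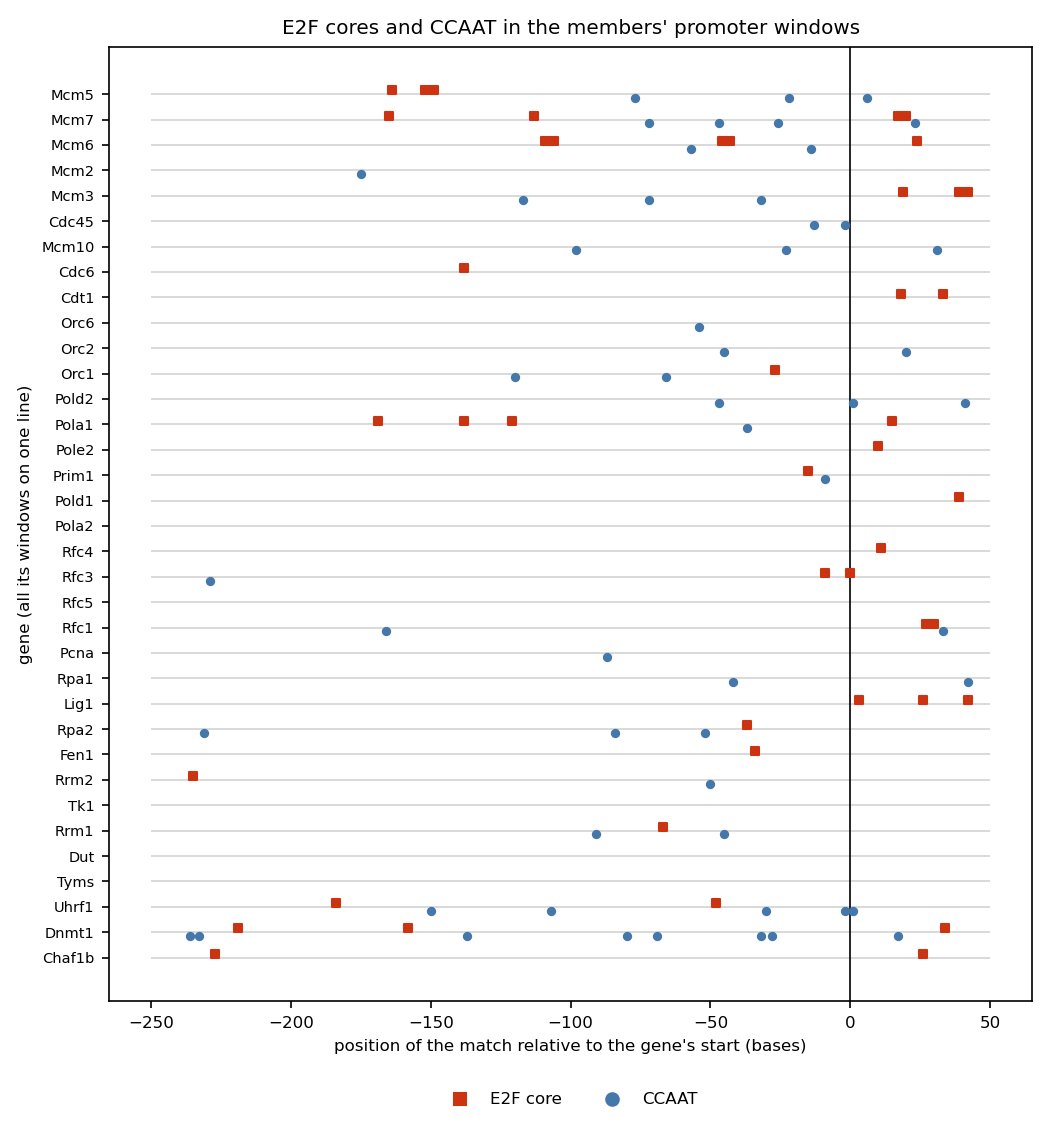
Matches in the promoter windows of the 35 genes with a window, listed by role. The x axis gives the position of a match relative to the annotated start in bases. Red squares mark E2F cores and blue circles CCAAT boxes, with all windows of a gene on its line; 22 genes hold a core and 22 a CCAAT box.

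The median log2 intensity of the members was 9.96 to 10.46 on the basal arrays, 8.11 to 8.41 on the aggregate arrays and 9.00 to 9.54 on the Matrigel arrays, while that of all genes stayed between 8.38 and 8.46. The cultures did not overlap in the median of the members. RMA, the authors' processing, brings arrays to a common scale, so the steady median of all genes cannot show a change in total RNA. Replicate 2 read lower than replicate 1 for most members in 5 of the 6 groups, by a median of -0.36 to -0.11 log2 units, and higher in Matrigel 14B3 by 0.07, while the same medians over all genes were 0.01 to 0.06. Of 9 liver progenitor epithelium markers, 4 rose and 2 fell in aggregates, and 5 rose and 0 fell in Matrigel. Those that rose in both were Hnf4a, Cdh1, Afp and Alb, and Dlk1 rose in Matrigel only. In basal culture Afp was higher in 14B3 than in 9A1 by 2.48 (limma, adjusted p = 0.00784). Averaged over cultures that difference was 0.21 and was not called, so the lines did not share 1 size of rise. Alb, which is also a hepatocyte marker, rose most, by 4.38 in aggregates and 4.46 in Matrigel. The keratin gene Krt8 had means of 13.74, 13.70 and 13.87 in basal, aggregate and Matrigel culture and was not called against basal culture in either. The liver transcription factor gene Hnf4a had means of 11.65, 12.59 and 12.20 and rose in both. The keratin gene Krt18 and the transcription factor gene Foxa2 were the markers that fell in aggregates, by -1.32 and -1.51. The arrays read RNA of whole cultures, so fewer cycling cells and less RNA per cell cannot be told apart.

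Replication genes were lower in aggregates than in basal culture in every role. Of the 41 genes, 39 fell and 0 rose (limma, adjusted p below 0.05), and 34 of those that fell did so by at least 1 log2 unit. Of all 12393 genes, 23.4% were called lower and 22.9% higher, and 8.54% were called lower by at least 1 unit. The median change of the members was -1.91 log2 units, with the middle of the list between -2.57 and -1.54, and the median over all genes was 0.10. On 39 of the 41 genes every aggregate array lay below every basal array, which held for 21.8% of all genes. Among the called members the adjusted p ran from 1.87e-09 for Cdt1 to 0.000264 for Orc1. Without any 1 of the 12 arrays, the median change of the members lay between -2.08 and -1.83.

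**Figure D2:**
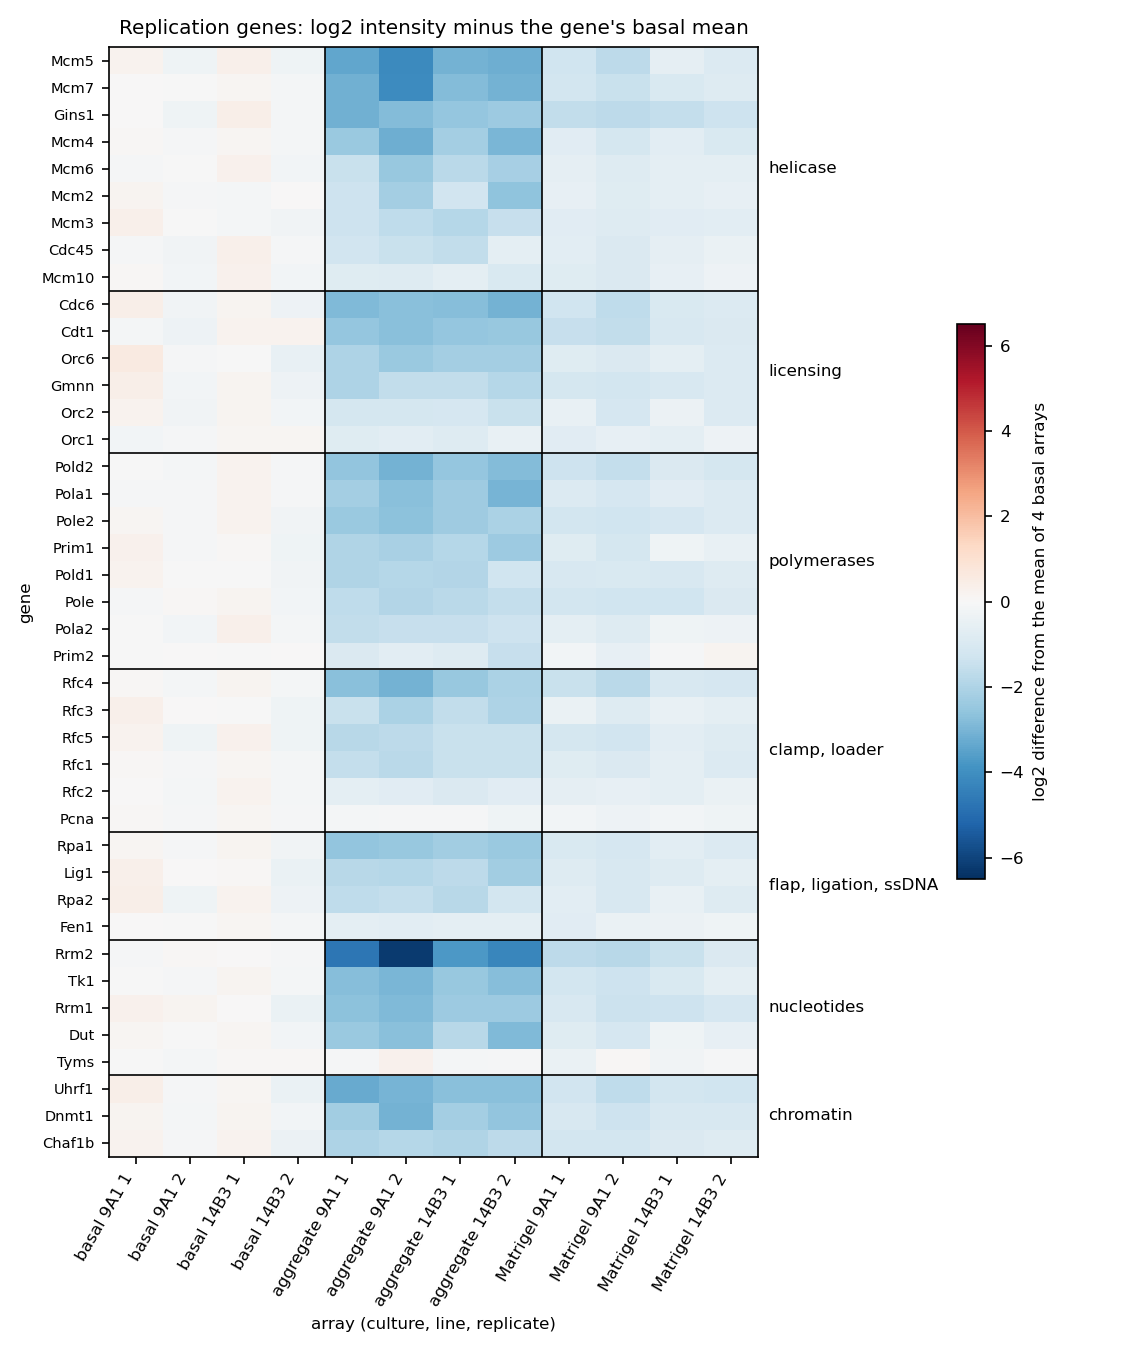
Log2 intensity of each of the 41 genes on each of the 12 arrays, minus the gene's mean over the 4 basal arrays (colour scale in log2 units, blue lower). Rows are grouped by role; the aggregate columns are blue for the 39 genes called lower, with Rrm2 lowest, and for 33 genes the Matrigel columns lie between the others without overlap.

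The helicase genes all fell in aggregates, 9 of 9, with a median of -1.94. Values are log2 intensities and are given in the order 9A1 replicates 1 and 2, then 14B3 replicates 1 and 2. Mcm5 (Entrez Gene 17218), a subunit of the helicase ring, read 10.74, 10.24, 10.84 and 10.26 in basal culture, 7.14, 6.36, 7.45 and 7.33 in aggregates and 9.23, 8.80, 9.94 and 9.62 in Matrigel. All aggregate arrays were low and all Matrigel arrays intermediate, without overlap. It fell by 3.45 ± 0.20 log2 units (SE, 4 against 4 arrays), 10.9-fold, with an adjusted p of 4.92e-08. The ring subunit Mcm7 fell by 3.28, Gins1 of the GINS helicase cofactor by 2.70 and Mcm4 by 2.68. Mcm6, Mcm2, Mcm3 and Cdc45, the last another helicase cofactor, fell by 1.94, 1.86, 1.60 and 1.23. The smallest change of the role was that of Mcm10 (Entrez Gene 70024), an origin-firing factor. It read 9.32, 9.03, 9.52 and 9.05 in basal culture, 8.45, 8.37, 8.57 and 8.24 in aggregates and 8.46, 8.30, 8.69 and 8.87 in Matrigel. Its aggregate and Matrigel arrays overlapped and both lay below the basal ones, and it fell by 0.82 ± 0.13 in aggregates (adjusted p = 0.000214).

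The licensing genes fell in aggregates, 6 of 6, with a median of -1.98. Cdc6 (Entrez Gene 23834), an ATPase that helps to load the helicase, read 9.62, 9.02, 9.45 and 8.94 in basal culture, 6.41, 6.54, 6.51 and 6.17 in aggregates and 7.94, 7.59, 8.28 and 8.37 in Matrigel. The cultures did not overlap, and it fell by 2.85 ± 0.16, 7.22-fold (adjusted p = 4.38e-08). Cdt1, its loading partner, fell by 2.54, and Gmnn, which encodes the Cdt1 inhibitor geminin, fell with it by 1.76. Among the subunits of the origin recognition complex, Orc6 fell by 2.21, Orc2 by 1.20 and Orc1 by 0.69. Orc1 (Entrez Gene 18392) read 7.29, 7.36, 7.58 and 7.55 in basal culture, 6.67, 6.77, 6.60 and 6.96 in aggregates and 6.71, 6.89, 6.79 and 7.11 in Matrigel. Basal arrays were highest, and aggregate and Matrigel arrays overlapped.

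All 8 polymerase and primase genes fell in aggregates, with a median of -1.91. Pold2 (Entrez Gene 18972), an accessory subunit of polymerase delta, read 10.65, 10.57, 10.94 and 10.61 in basal culture, 8.14, 7.61, 8.16 and 7.87 in aggregates and 9.34, 9.12, 9.75 and 9.55 in Matrigel. Each culture formed its own range, and Pold2 fell by 2.75 ± 0.14, 6.72-fold (adjusted p = 1.84e-08). The catalytic subunits Pola1, Pold1 and Pole fell by 2.57, 1.75 and 1.71, the accessory subunits Pole2 and Pola2 by 2.36 and 1.48, and the primase Prim1 by 2.07. Prim2 (Entrez Gene 19076), the large primase subunit, read 8.79, 8.89, 8.83 and 8.86 in basal culture, 7.92, 8.18, 7.99 and 7.35 in aggregates and 8.65, 8.32, 8.77 and 9.01 in Matrigel. Its aggregate arrays were lower than all others, by 0.98 ± 0.14 against basal culture (adjusted p = 0.000122), and its Matrigel arrays overlapped the basal ones.

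Of the clamp and its loader, 5 of 6 genes fell in aggregates, and the median of the 6 was -1.57. The 5 were the loader subunits. Rfc4 (Entrez Gene 106344) read 9.70, 9.48, 9.83 and 9.49 in basal culture, 6.92, 6.55, 7.16 and 7.56 in aggregates and 8.20, 7.85, 8.59 and 8.51 in Matrigel. These ranges did not overlap, and Rfc4 fell by 2.58 ± 0.14, 5.96-fold (adjusted p = 3.2e-08). Rfc3, Rfc5, Rfc1 and Rfc2 fell by 1.78, 1.60, 1.55 and 0.77. The clamp itself, Pcna (Entrez Gene 18538), read 13.06, 12.87, 13.08 and 12.87 in basal culture, 12.83, 12.91, 12.87 and 12.71 in aggregates and 12.77, 12.63, 12.77 and 12.69 in Matrigel. Basal and aggregate arrays overlapped, and the difference of -0.14 was not called (95% confidence interval -0.36 to 0.07, adjusted p = 0.270). Pcna was read from a single probe set, and the RefSeq table lists processed copies of it on other chromosomes. Whether these share its probes was not tested.

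The genes of flap removal, ligation and single-strand binding fell in aggregates, 4 of 4, with a median of -1.72. Rpa1 (Entrez Gene 68275), the large subunit of the single-strand binding protein, read 12.04, 11.81, 12.08 and 11.67 in basal culture, 9.31, 9.42, 9.63 and 9.51 in aggregates and 10.93, 10.78, 11.24 and 11.02 in Matrigel. The cultures stood apart, and Rpa1 fell by 2.43 ± 0.12, 5.39-fold (adjusted p = 1.14e-08). Lig1, the ligase of lagging-strand fragments, fell by 1.91 and Rpa2 by 1.54. The flap nuclease Fen1 (Entrez Gene 14156) read 11.76, 11.72, 11.88 and 11.64 in basal culture, 11.11, 11.04, 11.11 and 11.14 in aggregates and 11.04, 11.34, 11.34 and 11.49 in Matrigel. Basal arrays were highest and the other cultures overlapped, with a fall of 0.65 ± 0.10 in aggregates (adjusted p = 0.000209). The small size of this fall depends on the probe set used, since the other probe set of Fen1, given below, fell by more.

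Among the genes of nucleotide supply, 4 of 5 fell in aggregates, and the median of the 5 was -2.56. Rrm2 (Entrez Gene 20135), the small subunit of ribonucleotide reductase, read 12.38, 12.52, 12.48 and 12.38 in basal culture, 7.76, 6.22, 8.70 and 8.20 in aggregates and 10.74, 10.64, 11.00 and 11.49 in Matrigel. The basal arrays were close together, and the aggregate arrays were low and spread, with an SD of 1.07 (n = 4) against 0.07 (n = 4). Rrm2 fell by 4.72 ± 0.26, 26.3-fold (adjusted p = 4.07e-08). The large reductase subunit Rrm1 fell by 2.56, the thymidine salvage kinase Tk1 by 2.74 and Dut, which removes dUTP, by 2.45. Tyms (Entrez Gene 22171), the enzyme that makes thymidylate from scratch, read 5.84, 5.74, 5.92 and 5.97 in basal culture, 5.81, 6.14, 5.74 and 5.79 in aggregates and 5.41, 5.93, 5.66 and 5.80 in Matrigel. All cultures overlapped, and the aggregate difference was 0.00 (95% confidence interval -0.27 to 0.27, adjusted p = 0.990). The files give no detection call, so whether this signal lay above background was not tested.

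All 3 genes of chromatin copying fell in aggregates, with a median of -2.53. Uhrf1 (Entrez Gene 18140), which guides the maintenance methyltransferase to newly copied DNA, read 10.75, 10.30, 10.48 and 9.96 in basal culture, 7.10, 7.36, 7.64 and 7.64 in aggregates and 9.11, 8.73, 9.19 and 9.07 in Matrigel. The ranges did not overlap, and Uhrf1 fell by 2.94 ± 0.15, 7.67-fold (adjusted p = 1.82e-08). Dnmt1, that methyltransferase, fell by 2.53. Chaf1b (Entrez Gene 110749), a subunit of chromatin assembly factor 1, read 9.46, 9.15, 9.46 and 8.88 in basal culture, 7.24, 7.37, 7.30 and 7.53 in aggregates and 8.07, 8.03, 8.32 and 8.39 in Matrigel. It fell by 1.88 ± 0.13 (adjusted p = 2.98e-07), again without overlap between cultures.

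**Figure D3:**
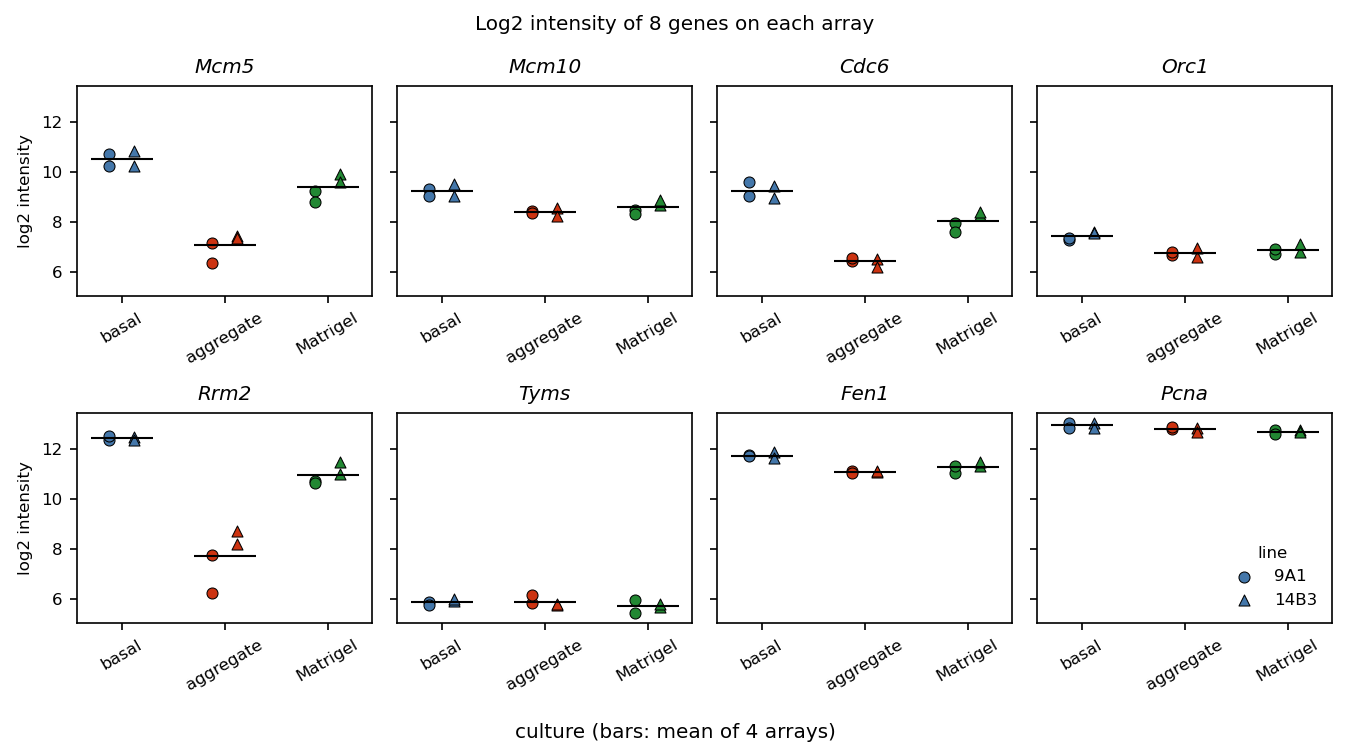
Log2 intensity of 8 genes on each array by culture, with circles for 9A1, triangles for 14B3 and bars at the mean of 4 arrays. Mcm5, Cdc6 and Rrm2 step down from basal to Matrigel to aggregate culture; Mcm10, Orc1 and Fen1 overlap between aggregates and Matrigel, and Tyms and Pcna stay within 5.41 to 6.14 and 12.63 to 13.08.

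In Matrigel the same genes were lower than in basal culture, by less. Of the 41 genes, 37 fell and 0 rose, against 14.3% of all genes called lower and 14.1% higher. A fall of at least 1 log2 unit was reached by 16, against 2.06% of all genes. The median change of the members was -0.90 (range -1.56 to -0.16), and that of all genes -0.04. Every Matrigel array lay below every basal array for 38 of the 41 genes, against 13.6% of all genes. The exceptions were Prim1, Prim2 and Tyms.

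By role, 8 of 9 helicase genes, 6 of 6 licensing genes, 7 of 8 polymerase and primase genes, 5 of 6 clamp and loader genes, 4 of 4 flap, ligation and single-strand binding genes, 4 of 5 nucleotide genes and 3 of 3 chromatin genes fell in Matrigel. Gins1 fell by 1.56 ± 0.14 (adjusted p = 7.28e-06), Rrm2 by 1.47, Uhrf1 by 1.35 and Rfc4 by 1.34. Cdt1 fell by 1.27 ± 0.10 and had the lowest adjusted p, 1.78e-06. The genes not called were Mcm2 (-0.63, adjusted p = 0.0916), Pcna (-0.26, adjusted p = 0.0753), Tyms (-0.17, adjusted p = 0.405) and Prim2 (-0.16, adjusted p = 0.529). With a replicate block in each line, Mcm2 and Pcna were called, with adjusted p of 0.0462 and 0.0389, and Mcm2 was also called without either aggregate 14B3 array (adjusted p = 0.0177). The call of Mcm6 in Matrigel was lost without either basal 9A1 array, basal 14B3 replicate 1, Matrigel 9A1 replicate 2 or either Matrigel 14B3 array (adjusted p up to 0.101). Those of Cdc45, Rfc3 and Dut were lost without basal 9A1 replicate 1, basal 14B3 replicate 1 or Matrigel 9A1 replicate 2, and those of Rfc3 and Dut also without Matrigel 14B3 replicate 2, with adjusted p up to 0.0759, 0.0793 and 0.0930.

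Both comparisons use the same basal arrays, so their changes are set side by side only. For the 39 genes that fell in aggregates, the Matrigel difference was a median of 45.8% of the aggregate difference on the log2 scale. It was lowest for Prim2 (16.0%) and Dut (27.3%) and highest for Mcm10 (78.7%) and Orc1 (81.7%). In aggregates 30 of the 41 members had a mean below 8.65, against 55.4% of all genes. In basal culture 3 did, against 55.1%. That level was the highest culture mean among 8 endothelial marker genes. Whether signal near background in aggregates raised these percentages was not tested.

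**Figure D4:**
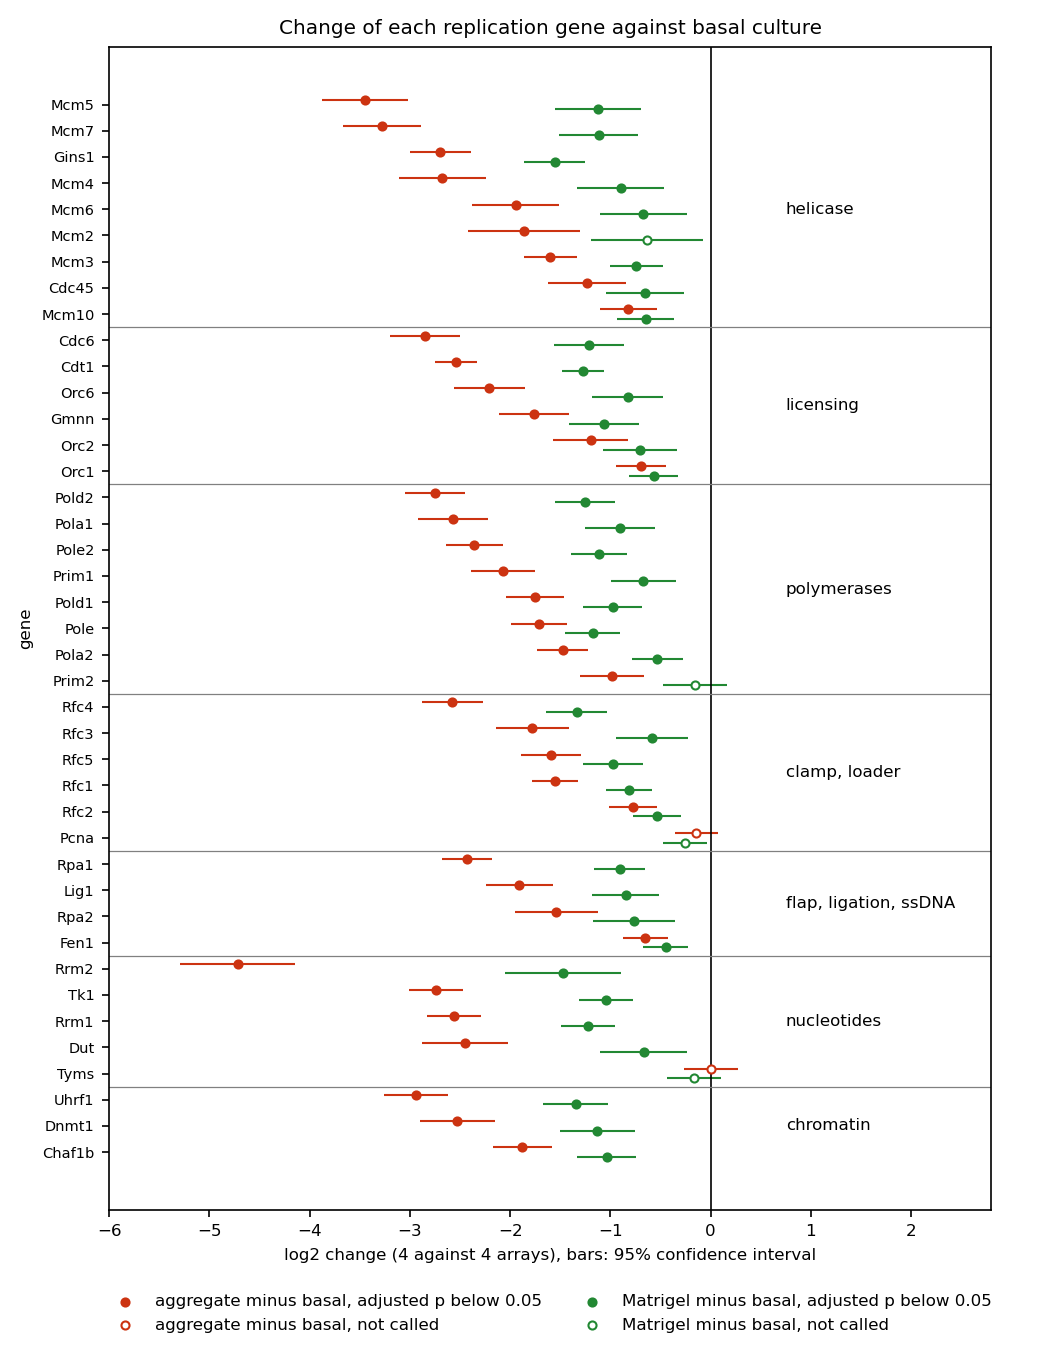
Log2 change of each of the 41 genes against basal culture, red for aggregates and green for Matrigel (4 against 4 arrays, bars 95% confidence intervals, open symbols not called). In aggregates the changes run from -4.72 (Rrm2) to 0.00 (Tyms), and in Matrigel from -1.56 (Gins1) to -0.16 (Prim2).

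Between the 3-dimensional cultures, the members were higher in Matrigel than in aggregates. Of the 41 genes, 34 rose and 0 fell, against 13.9% and 12.7% of all genes, and 23 rose by at least 1 log2 unit, against 3.11%. The median was 1.19 (range -0.17 to 3.25). Rrm2 was 9.49-fold higher in Matrigel, Mcm5 5.01-fold and Mcm7 4.47-fold, and Tk1 had the lowest adjusted p, 5.27e-06, with a rise of 1.69 ± 0.12. The 7 genes not called were Mcm10 (0.18), Orc1 (0.13), Orc2 (0.50), Pcna (-0.11), Rfc2 (0.24), Fen1 (0.20) and Tyms (-0.17). Orc2 was called with a replicate block in each line (adjusted p = 0.00399), and also without aggregate 14B3 replicate 1, Matrigel 9A1 replicate 2 or Matrigel 14B3 replicate 2 (adjusted p = 0.0188 to 0.0401). With the mean of its probe sets, Fen1 was called at 1.12 (adjusted p = 4.12e-05). Cdc45 rose by 0.58 (adjusted p = 0.0325) and was not called without aggregate 9A1 replicate 2, aggregate 14B3 replicate 1, Matrigel 9A1 replicate 1 or either Matrigel 14B3 array, with an adjusted p of up to 0.113.

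All Matrigel arrays lay above all aggregate arrays for 35 of the 41 genes, against 11.8% of all genes. The full order of basal above Matrigel above aggregate, with no overlap between any cultures, held for 33 of 41, against 6.29%. The other 8 genes were Mcm10, Cdc45, Orc1, Prim1, Prim2, Pcna, Fen1 and Tyms. The Matrigel array labelled 5 days, the same time as the aggregates, lay above all 4 aggregate arrays for 38 of the 41 genes, against 27.3% of all genes. Its median difference from the aggregate means was 1.22 over the members and -0.13 over all genes. The exceptions were Orc1, Pcna and Tyms, and as a single array it allowed no test at matched days.

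The lines 9A1 and 14B3 were compared to ask whether the members differ between independent isolates. Averaged over cultures, 1 of the 41 genes, Cdt1, was higher in 14B3, and 0 were lower, against 2.57% of all genes called higher. Cdt1 (Entrez Gene 67177) read 11.44, 11.21, 11.78 and 11.76 in basal culture, 9.04, 8.85, 9.05 and 9.09 in aggregates and 10.03, 9.97, 10.48 and 10.63 in Matrigel, in the same order of arrays. Each 14B3 array lay above both 9A1 arrays of its culture, and the difference was 0.37 ± 0.08 (adjusted p = 0.0149). It was not called without basal 9A1 replicate 2 (adjusted p = 0.0596) or with the mean of the gene's 3 probe sets (adjusted p = 0.185). With a replicate block in each line, 3 members were called higher, against 3.99% of all genes, the others being Mcm5 (0.49, adjusted p = 0.00458) and Rfc4 (0.41, adjusted p = 0.0225). A block shared by both lines also gave 3, against 4.66% of all genes. In basal culture alone limma called 0 members in either direction, against 1.9% of all genes, and 2 passed an unadjusted p of 0.05. In aggregates it called 0, against 1.53%, with 28 of 41 higher in 14B3 and 6 past an unadjusted p of 0.05. In Matrigel it called Cdt1 (0.55, adjusted p = 0.0438), against 3.77% of all genes, with 41 of 41 higher in 14B3 by sign, a median of 0.21, and 7 past an unadjusted p of 0.05. The lines also differ in days there, since 1 of the 14B3 arrays is the one labelled 5 days. Here and below, signs and unadjusted p-values are counted for the members only, without a share of all genes. No difference between the lines is read from these counts.

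Within each line, 39 members fell in aggregates, against 19.5% of all genes in 9A1 and 17.5% in 14B3, with medians of -2.01 and -1.88. In Matrigel 35 members fell in 9A1, against 8.07% of all genes, and 21 in 14B3, against 7.6%, with medians of -1.08 and -0.76. The difference between the lines in these responses was tested as such. For aggregates limma called 0 members, against 0.468% of all genes, and 3 passed an unadjusted p of 0.05. For Matrigel it called 0, against 0.686%, and 1 passed an unadjusted p of 0.05. Line and days are partly confounded in the Matrigel responses, since 1 of the 14B3 Matrigel arrays is the one labelled 5 days. Rrm2 fell by 5.46 in 9A1 and by 3.98 in 14B3 in aggregates, a difference of 1.48 (95% confidence interval 0.33 to 2.63, adjusted p = 0.485). Without aggregate 9A1 replicate 1, which leaves 1 array in that group, this difference was 2.25. Prim1 fell by 1.08 in 9A1 in Matrigel and changed by -0.26 in 14B3, a difference of 0.82 (95% confidence interval 0.17 to 1.46, adjusted p = 0.460), which was called with a replicate block shared by both lines (adjusted p = 0.0365).

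Several members have more than 1 probe set, and these did not always read alike. The 41 genes were covered by 75 probe sets, and 24 genes had more than 1. In aggregates 67 of the 75 fell and 0 rose, in Matrigel 62 fell and 0 rose, and between Matrigel and aggregates 58 rose and 0 fell (limma on every probe set). Of all 20380 probe sets in that fit, 23.7% and 14.2% were called lower in these comparisons with basal culture, and 13.6% were called higher in Matrigel than in aggregates. Fen1 was read from a probe set that fell by 0.65 in aggregates, while its other probe set fell by 3.12. The probe set used for Fen1 is of the kind that the manufacturer marks as able to bind several transcripts. Mcm2 was read from a probe set that fell by 1.86, and its other fell by 3.22, with a Matrigel change of -1.06 (adjusted p = 0.000506). Mcm3 was read at -1.60, and its 4 others gave -3.36, -2.78, -2.50 and -0.04.

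Dut was read at -2.45 and its other probe set at -0.39, Pola2 at -1.48 and 0.07, and Mcm10 at -0.82 and -0.15. The 3 probe sets of Tyms gave 0.00, 0.14 and -0.20, and none was called. The third probe set of Cdt1 gave -0.03, where the other two gave -2.54 and -2.60.

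**Figure D5:**
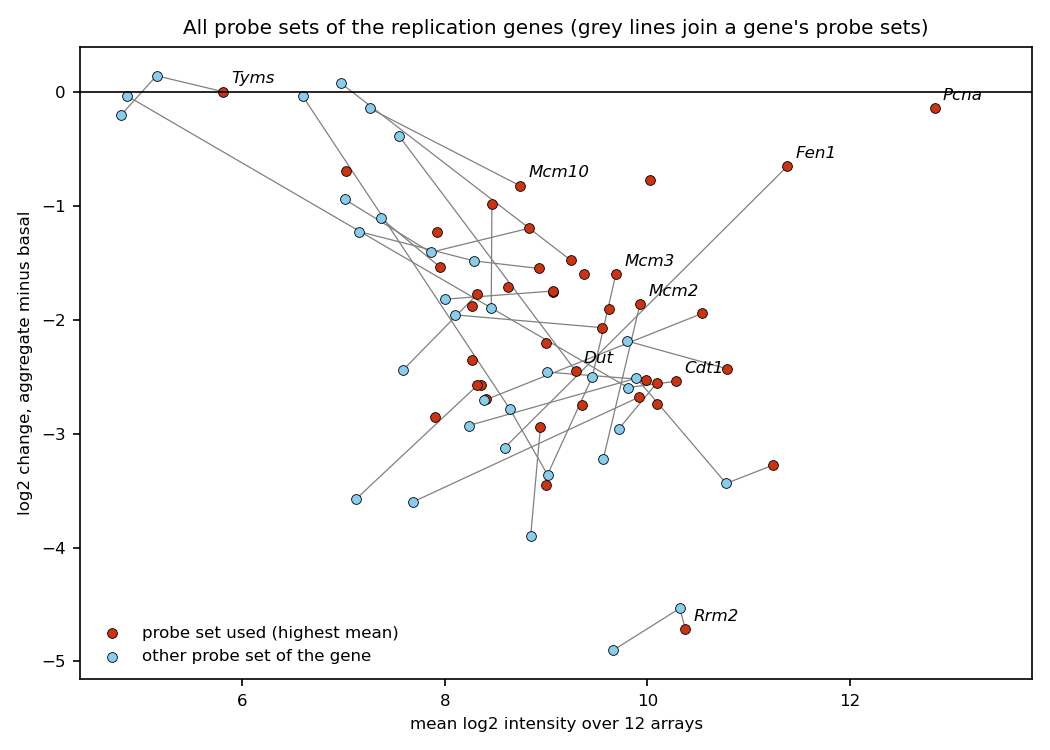
Log2 change of aggregates against basal culture (y axis) by mean log2 intensity over 12 arrays (x axis) for all 75 probe sets of the 41 genes. Red points are the probe sets used, blue points a gene's others, and grey lines join those of a gene; Fen1 spans -3.12 to -0.65, and the probe sets of Tyms lie between -0.20 and 0.14.

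Other genes of the pathway were read from lists outside the 41. Beside their counts stand 23.4% of all genes lower and 22.9% higher in aggregates, and 14.3% lower and 14.1% higher in Matrigel. Of 28 other fork and origin genes, 21 fell and 2 rose in aggregates, with a median of -0.93, and 17 fell and 1 rose in Matrigel. The decatenating enzyme Top2a fell by 3.94, and Dbf4, which activates the origin kinase Cdc7, changed by -3.71. The fork protection factor Tipin changed by -3.47 and the checkpoint scaffold Topbp1 by -3.00, both called. Cdc7 itself changed by -0.17 and was not called. Pold4, the smallest subunit of polymerase delta, rose by 1.33 in aggregates and by 1.53 in Matrigel, and Mcm9, a helicase of repair, rose by 0.26 in aggregates. Donson, a fork factor, changed by -0.37 from aggregates to Matrigel and was called, against the majority of its list.

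Of 12 enzymes of purine and pyrimidine synthesis, which feed ribonucleotide reductase, 12 fell in aggregates and 10 in Matrigel, with medians of -1.49 and -0.75. Paics of the purine pathway fell by 2.64 and Cad, which starts pyrimidine synthesis, by 2.28 in aggregates. Of 12 other deoxynucleotide enzymes, 3 fell and 5 rose in aggregates, with a median of 0.04. The thymidylate kinase Dtymk fell by 2.09 and the deoxycytidine kinase Dck by 1.35, while the cytidine deaminase Cda rose by 1.61 and the pyrimidine kinase Cmpk1 by 1.30. Nme2, a nucleoside diphosphate kinase, fell by 1.03, and of the mitochondrial kinases Dguok rose by 0.77 and Tk2 by 0.27. Samhd1, which degrades deoxynucleotides, rose by 0.28. Rrm2b, the small reductase subunit used outside S phase, changed by -0.06 and was not called.

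Of 19 regulators of S phase entry, 14 fell and 2 rose in aggregates, and 14 fell and 1 rose in Matrigel. Cyclin genes Ccna2 and Ccne2 fell by 3.06 and 2.45 in aggregates, the checkpoint kinase gene Chek1 by 2.16 and Skp2, a ubiquitin ligase subunit, by 1.85. E2f1, an activator of replication genes, fell by 0.65, while the pocket protein genes, whose products restrain E2F, did not move alike. Rb1 and Rbl2 each rose by 0.92 in aggregates, and Rbl1 fell by 0.89. In Matrigel Rbl2 rose by 0.41, Rbl1 fell by 0.46 and Rb1 was not called (0.13, adjusted p = 0.707). Of 23 genes of mitosis, 23 fell in aggregates and 23 in Matrigel, with medians of -2.90 and -1.34, beside -1.91 and -0.90 for the members. Of the genes with a promoter window, E2F cores were found in 12 of 25 other fork and origin genes (48.0%), 5 of 11 of purine and pyrimidine synthesis (45.5%), 7 of 13 regulators (53.8%), 2 of 11 other deoxynucleotide enzymes (18.2%) and 2 of 20 mitosis genes (10.0%), beside 62.9% of the members. CCAAT was found in 10 (40.0%), 4 (36.4%), 5 (38.5%), 2 (18.2%) and 16 (80.0%) of these lists' genes in the same order.

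Among the members, the 22 genes with an E2F core had a median aggregate change of -2.21 (range -4.72 to -0.65), and the 13 without had -1.60 (range -2.75 to 0.00). The ranges overlapped. The largest falls among genes without a core were those of Pold2 (2.75) and Tk1 (2.74). A gene without a core had no exact match in its windows, and sites elsewhere were not searched. The values are a description and were not tested.

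Markers of cell types were read in the same cultures, with 1 gene, Alb, on both the progenitor and the hepatocyte list. The summed intensity of the 9 progenitor markers was 32216 to 37138 on basal, 32578 to 48245 on aggregate and 42916 to 49663 on Matrigel arrays. Of 8 hepatocyte markers, 8 rose in aggregates and 7 in Matrigel, and their summed intensity was 1786 to 2502 on basal, 44688 to 68468 on aggregate and 30468 to 40297 on Matrigel arrays. Among all 12393 genes, 22.9% rose in aggregates and 14.1% in Matrigel. Of 10 haematopoietic markers, 3 rose in aggregates and 2 in Matrigel, with sums of 2348 to 2752, 2974 to 5671 and 2502 to 3639. Their aggregate sums were 5671 and 5605 in 9A1 and 2974 and 3437 in 14B3. Of 8 endothelial markers, 0 were called in aggregates and 1 rose in Matrigel, with sums of 825 to 1065, 956 to 1065 and 735 to 1312. Of 11 stellate and fibroblast markers, 1 rose in aggregates and 3 in Matrigel, with sums of 1726 to 1886, 1791 to 2059 and 1666 to 4342. Their Matrigel sums were 4342 and 3230 in 9A1 and 1666 and 1891 in 14B3, so the high sums were those of 9A1 only. Array intensities have no true 0, so no marker can be given as absent, and the part of these markers in the fall of the replication genes was not tested.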

How the data were processed

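Total RNA of 12 cultures was hybridised to 430A arrays. The authors deposited 1 intensity per probe set on a linear scale (14.4 to 27318), made with RMA in R 2.3.1 per the submitters' processing notes, and log2 was taken here. The arrays hold no read depth, and their number limits the precision. Of 22690 probe sets, 20380 had a single gene symbol in GEO's platform annotation, which can be old; 691 with several, 1555 with none and 64 controls were left out. No dim genes were filtered. The members, role groups, lists and tests were chosen with earlier results of these data known.

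Values of 12393 genes were fitted with limma 3.58.1 under R 4.3.3. The model held 1 mean per group (6 residual degrees of freedom), without a replicate block. Tests were two-sided. A gene was called, or rose or fell, where the Benjamini-Hochberg adjusted p, taken over all genes, was below 0.05. Errors are SE and intervals 95%. The labels call arrays of a group biological replicates and say no more, so the p-values reflect the spread of these samples alone, which may be technical. On simulated data for aggregates minus basal culture (12393 genes, 5 draws of 200 changed genes), 41.2%, 92.8% and 99.2% of genes changed by 0.5, 1 and 2 log2 units were recovered, and 4.45% of calls were false. The simulation drew noise independently for each array and changed fewer genes than were called in the data. These shares therefore need not hold for the arrays measured here.

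Same-numbered replicates deviated together: across genes the differences of replicate 2 minus replicate 1 correlated in all 15 pairs of groups (r = 0.10 to 0.64), so blocked values are given where they change a call. Alternatives were the block, each array left out, 2 other scalings, other uses of probe sets, a filter on dim genes, array weights, a trended robust variance and a minimum change. Values in every array are given for the largest and smallest aggregate change per role, members not lower in aggregates and members called between lines. Up to 4 genes of each other list are named by size of change, with those called against their list's majority; Further genes of the S phase regulator, deoxynucleotide and marker lists, and Cdc7, were chosen after their values were seen. Promoter windows and gene symbols come from RefSeq tables. Protein sequences were not used here. Plots were made in matplotlib 3.10.9 under Python 3.11.15.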

Additional observations from a re-analysis of the deposited data

Results flagged for a closer look

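In each culture, the 4 arrays of each gene were searched for a highest or lowest value far from the nearest of the others relative to their range (above Dixon's 95% critical value). Of 123 sets of 4 arrays, 4 were found, and chance gives about 1 in 20. Pola1 read 9.74 on basal 14B3 replicate 1, where the other basal arrays read 9.43 to 9.45. Pold1 read 8.69 on aggregate 14B3 replicate 2, where the others read 8.02 to 8.11. On Matrigel 9A1 replicate 2, Mcm6 read 10.56, where the others read 10.79 to 10.83, and Dnmt1 read 9.86, where the others read 10.15. These 4 genes were called lower in aggregates and in Matrigel than in basal culture; the Mcm6 call in Matrigel was lost without that array (adjusted p = 0.0812).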

How the results depend on the processing

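Aggregates minus basal culture held 39 members lower and 0 higher under every scaling, block and variance model. Among genes above the median level, where dimmer members drop out, 29 members were lower, against 2249 of the 6196 genes in that fit. With a change of at least 1 log2 unit 34 were lower, against 8.54% of all genes. No called member changed sign under any alternative run. Without 1 array, the median of the members ran from -0.98 to -0.79 in Matrigel and from -2.08 to -1.83 in aggregates. For Matrigel minus aggregates it ran from 1.03 (without aggregate 9A1 replicate 2) to 1.31. A minimum change of 1 log2 unit left 16 members lower in Matrigel.

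A fit without 1 array leaves 1 array in that group, so no line difference is read from such fits. Without aggregate 9A1 replicate 1, that group is replicate 2 alone, the lowest aggregate array for Rrm2 (6.22) and Mcm5 (6.36). For 14B3 minus 9A1, 3 members were higher with either replicate block and 0 with a change of at least 1 log2 unit. After quantile normalization 2 members were higher, against 372 of the 12393 genes. Without 1 array this count ran from 0 (without basal 9A1 replicate 2) to 5 (without aggregate 9A1 replicate 1: Cdt1, Mcm5, Mcm7, Rfc4 and Rrm2), with 3 without aggregate 14B3 replicate 1 (Cdc45, Cdt1 and Rfc4), and the median from 0.03 to 0.16. For the difference in aggregate response, the median ran from -0.025 (without basal 14B3 replicate 2) to 0.37. For the difference in Matrigel response, the replicate block shared by both lines gave 1 member (Prim1). Of the 12393 genes, that fit called 78 higher and 108 lower. The median of the members ran from 0.10 to 0.46 without 1 array. The block changed no call of a member beyond those given above. The causes were not tested. The Dut call in Matrigel was lost with the mean of its probe sets (adjusted p = 0.102). With 2 arrays a group, changes near 0.5 log2 units can be missed. How often was not measured in these data, since the simulation changed fewer genes than were called here. Weak signals may hold background.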
